A study of Mus musculus with 4 samples.

Results

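The 8 genes described here, Shh, Gas1, Hhip, Ptch1, Smo, Gli1, Gli2 and Gli3, encode the ligand, the surface receptors, the transducer and the transcription factors of Sonic hedgehog signalling. Every open-chromatin peak whose centre lay within 100 kb of the start site of one of them was taken, which gave 98 of the 65467 control peaks and 5 of the 3103 AP-2-dependent nucleosome-free regions of the mouse facial surface ectoderm. The start site was that of the principal transcript in GENCODE (mouse release 21, GRCm38, the mm10 assembly), and no peak was shared between the 8 windows. ATAC-seq, in which a transposase cuts DNA that nucleosomes leave free, was run at E11.5 on 2 control libraries and 2 libraries of the ectoderm double knockout (EDKO).

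Control embryos were Tfap2a flox/+; Tfap2b flox/+ littermates without Crect, so each carried 1 floxed allele of both genes. EDKO embryos carried the Crect transgene and were homozygous for the floxed alleles (Tfap2a flox/flox; Tfap2b flox/flox), and so lack AP-2α and AP-2β where Cre has acted. Crect is driven by an intronic enhancer of Tfap2a. Broader recombination has been seen with it, and the sires were screened with reporter lines before use. Ectoderm from all facial prominences was combined after Dispase separation from the mesenchyme, so the peaks are a mixture over the whole face, and a loss of the cells that carry an open element cannot be told apart from less opening per cell. Of the fixed marker lists, 12 of 12 surface ectoderm genes had a control peak within 1 kb of the start site. So did 9 of 10 cranial mesenchyme genes, 4 of 5 muscle and neuron genes, 1 of 5 endothelial genes and 0 of 5 blood genes. Of all 21853 protein-coding genes 65.5% had such a peak. The median summit −log10 p of the marker peaks was 10.3 for the ectoderm list and 5.39 for the mesenchyme list. It was 4.77 for the muscle and neuron list and 9.01 for the single endothelial gene, Kdr. An open start site is not a measure of transcription, and the part of other cell types in the peaks described here was not tested.

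Hedgehog signalling starts when Shh binds Patched 1, the product of Ptch1, at the surface of a receiving cell. Patched 1 then no longer holds back Smoothened (Smo), and the GLI factors switch on target genes, among them Ptch1, Hhip and Gli1 themselves. In the developing face Shh is made by ectoderm and oral epithelium, and much of the response takes place in the neighbouring mesenchyme. AP-2 factors bind GC-rich palindromes, and the simplest form of the site is GCC and GGC separated by 3 free bases.

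The 5 AP-2-dependent regions lay at Gas1, Hhip, Smo, Gli2 and Gli3. Their sequences are shown because the regions were called less accessible in EDKO than in control ectoderm. Whether the difference arose at Smo itself, where the sequence is multi-copy, was not tested. All sequences are from the forward strand of GRCm38, 5′ to 3′. Regions of up to 300 bases are whole, Hhip is given as 300 bases around the summit and Smo, whose sequence repeats itself, as 100 bases. Capitals mark the AP-2 string GCCNNNGGC, its form with 4 free bases, and the TEAD string GGAATG, on either strand. A further region 132 kb downstream of Gas1, outside the 100 kb window and chosen after its values were seen, is the strongest AP-2-dependent region within 250 kb of that gene.
Gas1, chr13:60155612-60155828, between genes: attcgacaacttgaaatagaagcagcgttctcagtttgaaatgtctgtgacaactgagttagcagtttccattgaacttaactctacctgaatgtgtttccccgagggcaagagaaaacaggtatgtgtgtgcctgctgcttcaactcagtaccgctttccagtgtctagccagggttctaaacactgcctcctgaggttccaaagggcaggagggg
Hhip, chr8:80006875-80007174, intron 4: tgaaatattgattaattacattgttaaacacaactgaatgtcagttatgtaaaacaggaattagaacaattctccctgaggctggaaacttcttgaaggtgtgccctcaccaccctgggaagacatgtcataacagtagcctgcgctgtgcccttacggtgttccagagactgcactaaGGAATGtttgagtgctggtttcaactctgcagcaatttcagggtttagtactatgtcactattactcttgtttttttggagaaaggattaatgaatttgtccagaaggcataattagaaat
Smo, chr6:29748378-29748477, intron 1: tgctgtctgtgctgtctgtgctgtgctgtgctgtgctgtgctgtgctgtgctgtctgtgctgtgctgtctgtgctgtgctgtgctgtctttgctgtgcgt
Gli2, chr1:119050392-119050637, intron 1: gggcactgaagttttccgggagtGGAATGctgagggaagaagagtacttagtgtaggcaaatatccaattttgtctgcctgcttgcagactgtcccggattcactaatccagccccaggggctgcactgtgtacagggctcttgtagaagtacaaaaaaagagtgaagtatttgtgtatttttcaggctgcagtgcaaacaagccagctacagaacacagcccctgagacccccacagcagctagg
Gli3, chr13:15550788-15551056, intron 3: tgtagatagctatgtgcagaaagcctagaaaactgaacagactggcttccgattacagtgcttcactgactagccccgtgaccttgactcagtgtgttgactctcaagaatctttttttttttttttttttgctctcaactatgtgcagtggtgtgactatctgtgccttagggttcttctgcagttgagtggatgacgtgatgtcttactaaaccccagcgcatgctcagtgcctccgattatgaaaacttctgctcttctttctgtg
Gas1 at 132 kb, chr13:60045006-60045305, between genes: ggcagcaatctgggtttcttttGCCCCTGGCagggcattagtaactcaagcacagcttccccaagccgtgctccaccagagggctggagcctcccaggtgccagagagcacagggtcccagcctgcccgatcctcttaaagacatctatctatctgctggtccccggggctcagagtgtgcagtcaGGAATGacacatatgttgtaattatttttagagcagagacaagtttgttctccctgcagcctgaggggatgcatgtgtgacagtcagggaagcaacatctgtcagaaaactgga

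None of the 5 regions held the AP-2 string over its whole length, against 29.7% of all 3072 regions on the chromosomes (912 regions), and none held the form with 4 free bases, against 23.5%. With 5 regions the Wilson interval of that share reaches 43.4%, which includes the share of all regions. The TEAD string lay in 2 of the 5, those of Hhip and Gli2, against 30.8% of all regions. The stretch printed from the 132 kb Gas1 region held both strings, GCCCCTGGC and GGAATG. The absence of these letters says nothing about binding by AP-2 proteins at other sequences.

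Each list was called once by the authors from its libraries combined. The control list was taken as the call from both control libraries, as the study describes it, although the replicates in its deposited name are numbered 1 and 3 and those in the labels 1 and 2. By the study's methods the list of AP-2-dependent regions used the control libraries with both EDKO libraries as background, so it holds DNA that was more open in control than in EDKO ectoderm and not the reverse. Each peak has a −log10 p at its summit, which measures how far the signal rose above that background without adjustment for the number of positions, and an area under the curve, which adds up −log10 p above the calling threshold along the peak. There is no value per library, so no error between replicates can be given, and values were compared within 1 list only. Read counts are not part of the lists, and the depth behind a peak is unknown. The interval given with a share is the 95% Wilson interval and covers counting error only.

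At the 8 genes, 5.10% of the control peaks overlapped an AP-2-dependent region (5 of 98, interval 2.20 to 11.4%). Over the 21 chromosomes 4.47% of control peaks did (2921 of 65298), and among control peaks within 100 kb of any protein-coding start site 3.65% did (1916 of 52424). Both shares lay inside the interval of the hedgehog genes, so no excess of AP-2-dependent peaks per control peak was detectable. Split by distance, 6.06% of the hedgehog peaks more than 5 kb from the nearest start site overlapped a region (4 of 66), against 5.75% of all such peaks. Within 5 kb the share was 3.12% (1 of 32), against 1.52% of all such peaks. Counted by gene the hedgehog share was again the higher one, and by more. Within 100 kb 5 of the 8 genes had a region (62.5%, interval 30.6 to 86.3%), each of them 1, and 20.2% of the 21853 protein-coding genes did. Among the 10933 genes with 7 to 21 control peaks, the range of the 8, it was 26.9%. Both shares lay below the interval, which rests on 8 genes. The 8 were chosen with earlier results of these data known, so an excess by gene was not tested. With areas of 500 or more only 2 of the 8 kept a region. Without the region of Smo, whose sequence is multi-copy (given with that gene), 4 of the 8 genes remained (50.0%, interval 21.5 to 78.5%), an interval that holds 26.9% and not 20.2%.

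**Figure D1:**
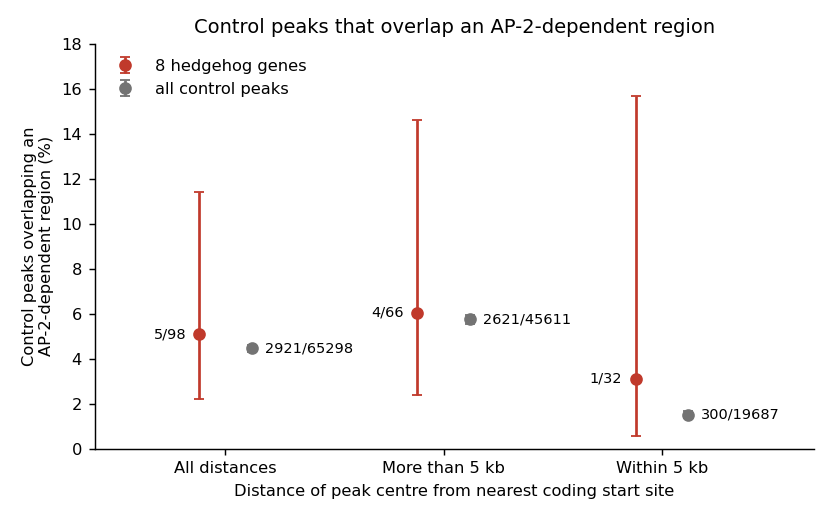
Percentage of control peaks that overlap an AP-2-dependent region, for the 98 peaks at the 8 hedgehog genes (red) and for all control peaks on the chromosomes (grey), at all distances and split at 5 kb from the nearest coding start site; points are shares, bars 95% Wilson intervals, and the fractions give the counts. The grey share falls inside the red interval in all 3 classes.

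The control peaks at the 8 genes were close to all control peaks in strength. Their summit −log10 p had a median of 5.01 at the 8 genes (95% binomial interval of the median over peaks 4.53 to 5.72, range 3.13 to 13.9), and 5.10 over all control peaks. The median width was 521.5 bp, against 560 bp. By principal transcripts, 51 of the 98 summits lay in introns, 41 between genes, 4 in UTRs and 2 in coding exons. The number of peaks per gene ran from 7 at Hhip to 21 at Gli3, and the median over all protein-coding genes was 8, with quartiles of 4 and 13.

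**Figure D2:**
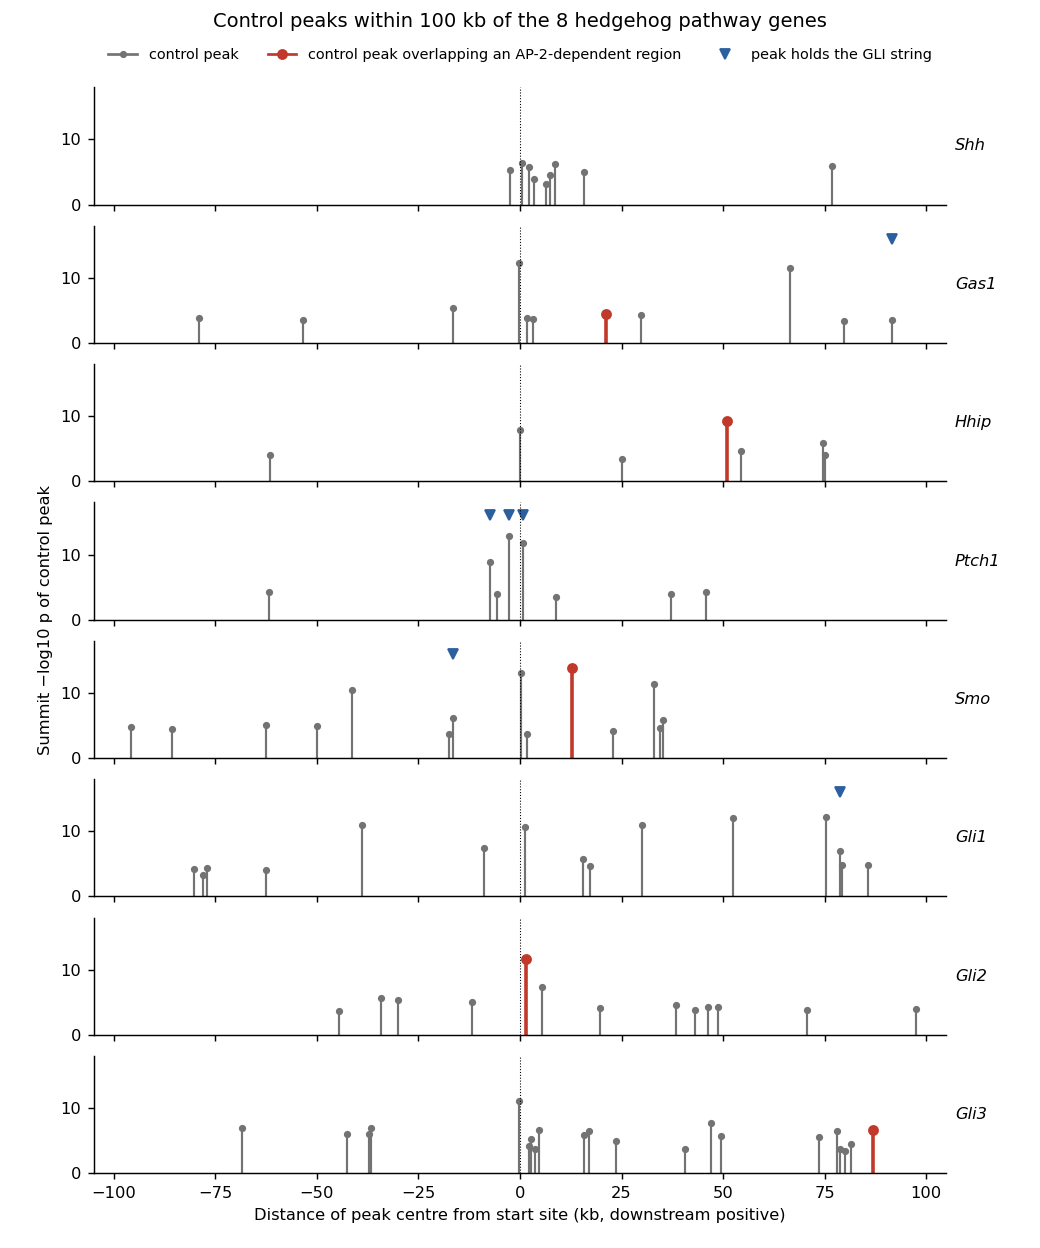
Control peaks within 100 kb of the 8 genes, 1 row per gene, with the distance of the peak centre from the start site in kb (downstream positive) on the horizontal axis and the summit −log10 p on the vertical axis; red stems overlap an AP-2-dependent region and triangles mark peaks that hold the GLI string TGGGTGGTC. Shh peaks sit close around the gene and none is red, 3 Ptch1 peaks near the start site carry triangles, and the tallest stem of the whole map is the red peak of Smo at 13.9.

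All 8 genes had a control peak within 1 kb of the start site, which 65.5% of protein-coding genes had (14314 genes). Shh had the weakest and narrowest of the 8, with a summit −log10 p of 6.33 and a width of 935 bp. It was stronger than 17.0% and wider than 21.6% of all start-site peaks, and it ended 28 bp inside the gene, short of the annotated start. Hhip came next in strength at 7.82, also below the median of 9.55 over all genes. The other 6 lay above that median, at 10.6 for Gli1, 11.1 for Gli3, 11.6 for Gli2, 11.8 for Ptch1, 12.2 for Gas1 and 13.1 for Smo. Since no value has an error between libraries, neighbours in this order cannot be separated.

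Width divided the genes further. The start-site peaks of Gli3 (3496 bp), Gas1 (3534 bp), Gli1 (4094 bp), Ptch1 (4418 bp) and Gli2 (4716 bp) were each wider than at least 97.2% of all start-site peaks, whose median was 1382 bp. Those of Smo (1591 bp) and Hhip (1789 bp) were wider than 62.1% and 71.0%. The receptor gene Ptch1, the co-receptor gene Gas1 and the 3 GLI genes thus had broad open start sites, while the ligand gene had a narrow one.

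**Figure D3:**
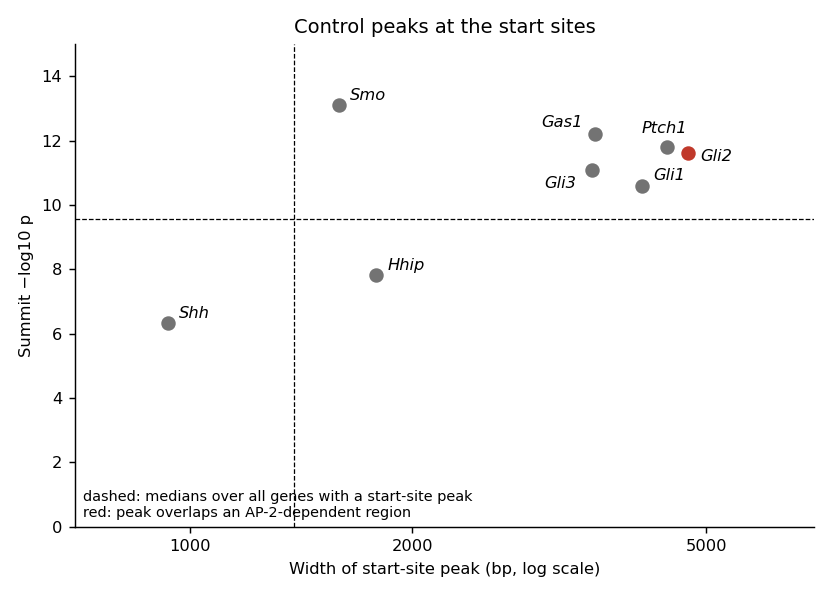
Width in bp (log scale) against summit −log10 p of the control peak at each of the 8 start sites, 1 point per gene, with dashed lines at the medians over all genes with such a peak (1382 bp and 9.55); red marks the peak that overlaps an AP-2-dependent region. Shh lies below both medians and Hhip below the strength median, and the 5 peaks of 3496 bp or more cluster at the upper right.

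Shh (chr5:28456815-28467256, minus strand) encodes the secreted ligand. Its 9 control peaks had a median summit −log10 p of 5.38 and none exceeded 6.33. Of these, 6 touched the 10442-base gene and together covered 52.3% of its bases, 5 of them with a summit in intron 1 or intron 2. The intronic peaks lay 2.30, 3.55, 6.50, 7.39 and 8.66 kb downstream of the start, with summit −log10 p of 5.72, 3.96, 3.13, 4.55 and 6.23. Peaks of 5.38 at 2.58 kb upstream and 5.08 at 15.8 kb downstream flanked the gene, and the ninth, of 5.87, lay 76.9 kb away in an intron of Rbm33. Within the 100 kb window the open chromatin was therefore concentrated in and next to the gene, as small and moderate peaks. Farther out, within 1000 kb, some control peaks were stronger. They reached 12.6 on the downstream side, at 396 kb with Insig1 as the nearest gene. On the upstream side they reached 10.4, where Lmbr1 was nearest.

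No control peak of Shh overlapped an AP-2-dependent region within 100 kb (0 of 9, which allows a share of up to 29.9% by the Wilson bound). Within 250 kb none did either (0 of 14, upper bound 21.5%). Both bounds include the 4.47% of all control peaks, so these counts do not set Shh apart. Enhancers of Shh are known to lie very far from the gene, so the window was widened to 1000 kb. On the upstream side none of 21 control peaks overlapped a region. On the downstream side 2 of 36 did, with the regions 268 and 356 kb from the start site at summit −log10 p of 3.75 and 5.92, where the nearest genes were En2 and Insig1. The region 356 kb away had a larger area than 84.1% of all regions. Of all control peaks more than 5 kb from a start site 5.75% overlapped a region, and neither side was tested against that share.

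Gas1 (chr13:60174405-60177365, minus strand) encodes a membrane-anchored co-receptor that helps cells respond to Shh. It had 11 control peaks, all with Gas1 as the nearest gene, and their median of 3.85 was the lowest of the 8 genes. Only the start-site peak (12.2) and a peak 66.4 kb downstream (11.5) exceeded 5.34. The AP-2-dependent region lay 21.2 kb downstream between genes and covered 94.8% of a 229 bp control peak, with the same summit. It was weak, with a summit −log10 p of 3.78 and an area of 237, larger than that of 13.1% of all regions, and its control peak of 4.43 was number 4 of the 11 by strength.

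The number of regions grew most with the window at Gas1, from 1 within 100 kb to 8 within 250 kb. At that width 8 of its 32 control peaks overlapped a region (25.0%, interval 13.3 to 42.1%), against 7 of 158 (4.43%) for the other 7 genes together and 4.47% of all control peaks. Hhip had the same share on 2 of 8 peaks (interval 7.15 to 59.1%), and the remaining 6 genes had 0 to 2 overlapping peaks each. The interval of Gas1 lies above both comparison shares, and 121 of 21853 genes (0.554%) had 8 or more regions within 250 kb, where the median gene had 0. Gas1 also had more control peaks in that window than most genes, 32 against a median of 19. Of the 5114 genes with at least 32, 95 (1.86%) had 8 or more regions. The window was an alternative to the 100 kb rule, and Gas1 was singled out after its values were seen. The regions stood 222 and 131 kb upstream and 21.2, 129, 132, 141, 206 and 214 kb downstream, all between genes. Gas1 was the nearest gene for 5 of them, Tut7 for 2 and Dapk1 for 1.

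The strongest of these regions, 132 kb downstream (chr13:60044807-60045544), had a summit −log10 p of 9.51 and an area of 1878, larger than 93.8% of all regions, and it lay in a control peak of 10.4. The other 7 ranged from 3.56 to 4.80. In the whole set 2 of the 8 regions held the AP-2 string, at 132 and 214 kb, and 3 others, at -131, 129 and 206 kb, held the form with 4 free bases. No further region lay between 250 and 1000 kb from Gas1.

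**Figure D4:**
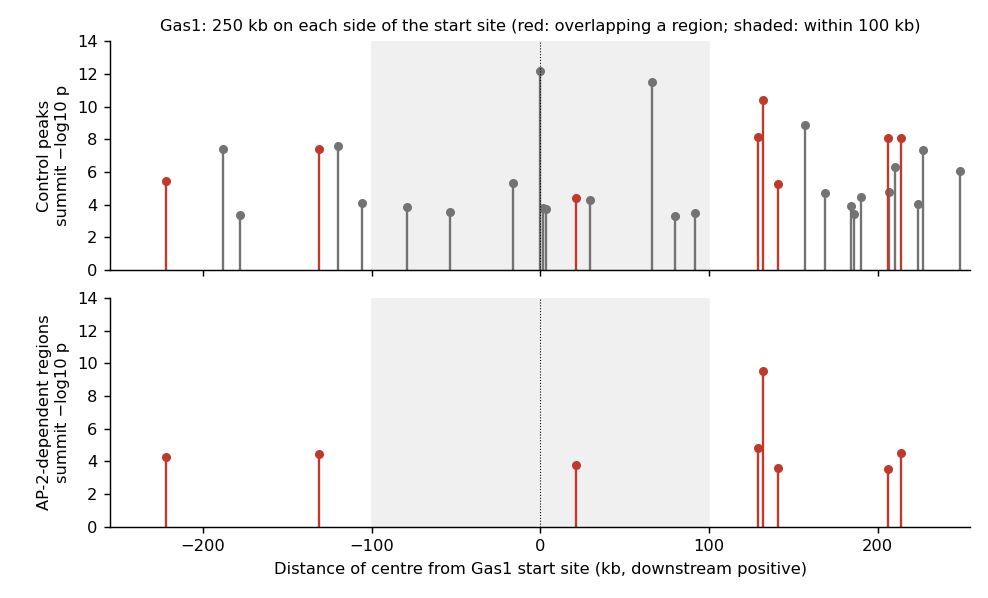
Summit −log10 p of control peaks (upper panel) and AP-2-dependent regions (lower panel) against distance from the Gas1 start site in kb (downstream positive), over 250 kb on each side; red control peaks overlap a region and the shaded band is the 100 kb window. Of 8 regions 1 lies inside the band, and the tallest, at 9.51, stands 132 kb downstream.

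Hhip (chr8:79965851-80058006, minus strand) encodes a surface protein that binds hedgehog ligands without passing the signal on, and it is induced by the pathway. It had 7 control peaks, the fewest of the 8 genes, and all had Hhip as the nearest gene. The strongest was not at the start site but 51.0 kb downstream in intron 4, at 9.24, stronger than 85.9% of all control peaks. This peak was AP-2 dependent. The region (chr8:80006758-80007393) covered 94.2% of its 675 bp, shared its summit, and had a summit −log10 p of 7.02 and an area of 1099, larger than 88.7% of all regions. Of the 5 regions it was the only one that combined a large area with single-copy sequence. A second region, 121 kb upstream at 3.22, fell outside the window.

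Ptch1 (chr13:63508328-63573598, minus strand) encodes the receptor. Its 8 control peaks were divided between 3 broad, strong peaks at the 5′ end and 5 peaks of 3.50 to 4.30. The strong peaks lay over the principal start site (11.8, 4418 bp), 2.68 kb upstream (12.9, 2318 bp) and 7.30 kb upstream (8.83, 1986 bp), the last of these over another annotated start of the gene. None of the 8 overlapped an AP-2-dependent region (upper bound 32.4%), and none of the 16 within 250 kb did (upper bound 19.4%). Both bounds include the 4.47% of all control peaks. The nearest region was 455 kb upstream, at 8.95, with Hsd17b3 as its nearest gene.

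The GLI string TGGGTGGTC, the consensus to which GLI factors bind, was found in all 3 strong Ptch1 peaks. The matches are shown with 10 bases on each side, on the forward strand of GRCm38, with the string or its reverse complement in capitals, because Ptch1 is a known target of GLI factors. Matches at Gas1 and Smo are shown beside them.
Ptch1, 704 bp upstream, chr13:63566425-63566453: aaagtagagaGACCACCCAggtaggcaac
Ptch1, 3554 bp upstream, chr13:63569275-63569303: ctgctcgactTGGGTGGTCagggctgagg
Ptch1, 7734 bp upstream, chr13:63573455-63573483: gccctcggcgTGGGTGGTCtgccgcgcca
Gas1, 91775 bp downstream, chr13:60085152-60085180: gctgccagcgTGGGTGGTCtggggcttgg
Smo, 16617 bp upstream, chr6:29719063-29719091: ctctaccacaTGGGTGGTCcccaccatgt

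The match nearest the principal start of Ptch1 lay 27 bp from the summit of its 4418 bp peak. The match 7734 bp upstream lay 106 bp from a summit and 129 bp downstream of the other annotated start, and the third was 1283 bp from its summit. A match at Gas1 lay 70 bp and one at Smo 53 bp from the summit of a control peak. That peak of Gas1 was weak and narrow (3.52, 212 bp), stronger than 6.93% of all control peaks, and that of Smo was stronger than 65.3%. The sixth match was in the 5′ part of Kif5a, 78753 bp downstream of Gli1. In all, 6.12% of the hedgehog peaks held the string (6 of 98, interval 2.84 to 12.7%), against 0.907% of all control peaks (592 of 65298).

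At Shh, Hhip, Gli2 and Gli3 no peak held it. Wide peaks hold more letters, and the 3 Ptch1 peaks are wide. In a window of fixed size, 100 bp on each side of the summit, the string lay in 3.06% of the hedgehog peaks (3 of 98, interval 1.05 to 8.62%) and 0.233% of all control peaks (152). The share of all peaks lay below the interval of the 8 genes in both counts, which rest on 6 and 3 matches, 1 of the 3 at Ptch1. None of the 5 AP-2-dependent regions held the string.

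Other strings were near the level of all peaks in the same windows around the summit. The AP-2 string lay in 15.3% of the hedgehog peaks (15 of 98) and 14.3% of all. The TEAD string lay in 21.4% (21 of 98) and 17.8%, and the GRHL string AACCGGTT in 0 of 98, where 0.338% of all peaks had it. In the RefSeq promoter windows of GRCm38, which run from 250 bases before to 50 after a gene start and were matched for Gas1, Hhip, Ptch1, Smo, Gli2 and Gli3, the AP-2 string was present at Hhip (2 matches) and the TEAD string at Smo, and the GLI string in none of the 6. Over all promoters of that table the shares were 16.6%, 14.7% and 0.253%. GC content ran from 62.3% at Gas1 to 76.3% at Ptch1, above the median promoter at 52.7%.

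Smo (chr6:29735503-29761365, plus strand) encodes the transmembrane protein that carries the signal into the cell. It had 14 control peaks, 5 of them nearest to Smo and the others to Tspan33, Tnpo3 or Ahcyl2. The peak 12.7 kb downstream in intron 1 had a summit −log10 p of 13.9, stronger than 99.1% of all control peaks and than the start-site peak at 13.1. The AP-2-dependent region inside it (chr6:29747878-29748647) had the highest summit of the 5, at 10.3, and an area of 2345, larger than that of 2918 of the 3072 regions. It covered 50.8% of the 1516 bp peak, with its summit 25 bp from that of the peak.

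This region differs from the other 4 in its sequence. It is 99.5% soft-masked as repeat in the reference, and its 31-base words occur at a median of 18 places in the assembly, up to 1412, where the other 4 regions have a median of 1. The printed stretch is a run of the unit tgctg and tgtctg. The reads were aligned with up to 10 placements each, so that a read from another copy can be placed here, and whether the difference between control and EDKO arose at Smo was not tested. Without control peaks of 2 or more copies, which also removes a peak 79.8 kb downstream of Gas1, 4 of 96 hedgehog peaks (4.17%, interval 1.63 to 10.2%) overlapped a region, and the genes with one were Gas1, Hhip, Gli2 and Gli3.

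Gli1 (chr10:127329882-127341974, minus strand) encodes an activator and is itself a target of the pathway. Its window held 15 control peaks, but the gene lies among many others and was the nearest gene for only 1 of them, the start-site peak at 10.6. Peaks of 11.0 to 12.2 in the window stood at or next to the starts of Dctn2, Mbd6, Mars and R3hdm2. None of the 15 overlapped an AP-2-dependent region (upper bound 20.4%, which includes the 4.47% of all control peaks). The nearest region was 149 kb downstream, at 4.27, in a coding exon of Dtx3.

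Gli2 (chr1:118834132-119053619, minus strand) encodes the main activator in many tissues. All 13 of its control peaks had Gli2 as the nearest gene. Besides the start-site peak (11.6) and one 5.53 kb downstream (7.39), they ranged from 3.72 to 5.60. Its region lay 3.10 kb downstream in intron 1, within the 4716 bp start-site peak but 3224 bp from the summit, and covered 5.22% of that peak. With a summit −log10 p of 3.64 and an area of 200, it was close to the smallest in the whole list, since 7 of 3072 regions had a smaller area. The rest of the open start site was not in the list of AP-2-dependent regions. Just outside the window, 113 kb downstream in intron 2, a further region of 3.73 held the AP-2 string 2 times.

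Gli3 (chr13:15463235-15730026, plus strand) encodes the factor that acts mainly as a repressor when the ligand is absent. It had 21 control peaks, more than 92.2% of protein-coding genes, and all had Gli3 as the nearest gene. They spread over introns 1 to 3 and the upstream flank, and their median of 5.92 was the highest of the 8 genes. Apart from the start-site peak (11.1) the strongest was at 47.1 kb in intron 2 (7.74). The region lay 86.9 kb downstream in intron 3, with a summit −log10 p of 4.28 and an area of 322, larger than 36.6% of all regions. It covered 46.8% of a 575 bp control peak of 6.64, which was number 5 of the 21 by strength.

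**Figure D5:**
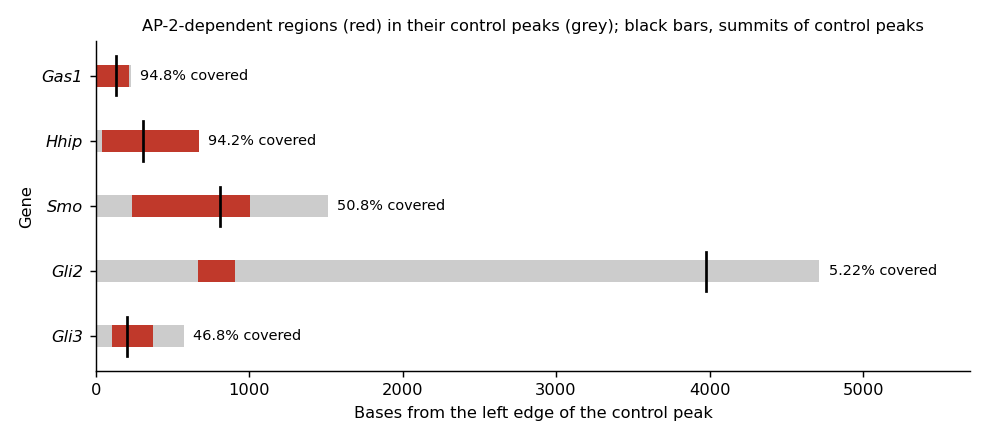
Position of the 5 AP-2-dependent regions (red) inside the control peaks that hold them (grey), in bases from the left edge of the peak, with black bars at the summits of the control peaks. The regions of Gas1, Hhip, Smo and Gli3 include the summit, and that of Gli2 lies 3224 bp from it and covers 5.22% of the peak.

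The 5 regions thus differed in how much of their peak they took. At Gas1 and Hhip the called region covered nearly the whole peak, at Smo and Gli3 about its central part, and at Gli2 a small interval far from the summit. The rank of the control peak differed too, since it was the strongest of its gene at Hhip, Smo and Gli2 and not at Gas1 and Gli3. At the edge of the 100 kb window, the control peaks just inside were at 97.5 kb of Gli2 (4.00) and 95.9 kb upstream of Smo (4.72), and those just outside were 100.1 kb upstream of Ptch1 (4.34) and 105.8 kb upstream of Gas1 (4.12). Of the regions, the one closest to the edge inside was that of Gli3 at 86.9 kb and outside that of Gli2 at 113.4 kb.

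Another 27 genes of the pathway were read in the same way. All 27 had a start-site peak, and 5 had an AP-2-dependent region within 100 kb (18.5%, against 20.2% of all genes). Disp1, which releases the lipid-bearing ligand, had one in intron 2 (summit −log10 p 4.04), and Sufu, which holds GLI factors in the cytoplasm, had one in intron 3 (4.26). The co-receptor Boc had one in intron 1 (6.17), and the co-receptor Cdon had 2, 94.5 and 81.8 kb upstream (7.83 and 4.42), where Rpusd4 was the nearest gene. Hhat, the enzyme that adds palmitate to the ligand, had one 59.4 kb upstream (4.93), where Sertad4 was nearest. Counted gene by gene, the 27 had 374 control peaks, with a peak shared by neighbouring genes of the list counted for each. Of these, 6 overlapped a region (1.60%), below the 4.47% of all control peaks and the 3.65% of those within 100 kb of a coding start site. In the role groups below a shared peak was counted 1 time. Neither these 374 peaks nor those of the role groups are split by distance from a start site here. Over all control peaks 1.52% overlapped a region within 5 kb of a start site and 5.75% farther away.

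The 8 genes and the 27 were then sorted by role, with these results known. Within 100 kb 20.2% of all protein-coding genes had a region. Of 6 genes for reception at the cell surface, Gas1, Hhip, Ptch1, Boc, Cdon and Lrp2, 4 had one. They were Gas1, Hhip, Boc and Cdon, and 5 of the 67 control peaks of the 6 genes overlapped a region (7.46%, interval 3.23 to 16.3%). Both regions of Cdon had Rpusd4 as the nearest gene, and that of Gas1 had a larger area than 13.1% of all regions. Of the 7 genes for ligands and their release 2 had a region, with 2 of 109 peaks (1.83%). Of Smo and 9 genes that act below it 2 did, with 2 of 137 peaks (1.46%), and of the 3 GLI genes 2 did, with 2 of 49 (4.08%). Among 9 genes of the further list that the pathway is known to induce, 0 of 104 control peaks overlapped a region, and the upper bound of 3.56% lies below 4.47% and 3.65%. Ptch1, Hhip and Gli1 are induced too but were sorted under other roles. With them it was 1 of 134 peaks, that of Hhip (0.746%, interval 0.132 to 4.11%). That interval holds 3.65% and not 4.47%. Because the groups were made with the regions known, neither bound tests whether induced genes have fewer regions. The interval of the surface genes holds the share of 4.47% over all control peaks, and differences between roles were not tested.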

How the data were processed

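Facial surface ectoderm was profiled by ATAC-seq in 2 control and 2 EDKO libraries. The authors removed adapters with NGmerge, mapped the reads to mm10 (bowtie2, very sensitive preset, -k 10) and ran Genrich (-j, -y, -r, -e chrM) on the libraries of each call together. The control list has a background set by the genome, and the list of AP-2-dependent regions has the EDKO libraries as background. The area under the curve is a score that the authors deposited as Genrich wrote it, as are the −log10 p of each summit (unadjusted) and the offset of the summit in bases. The lists do not give depth, and 0 columns of values were left unmatched.

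From these intervals, distances, overlaps (from 1 bp), features at summits and consensus strings on both strands were computed with Python 3.11.15 and pysam 0.24.0 on GRCm38. Peaks on scaffolds were counted but not placed. Copy number is the median count of 31-base words over 21 chromosomes, and single-copy means below 2. Peaks are no replicates, and p-values were not computed. Overlap, distance and string search were tested on simulated data. All 8 genes are named, and of the 27 further genes those with a region (1 more gene of that list is not reported here); regions within 100 kb have their sequence printed, and other sequences and the role groups were added later. The members and lists were chosen with earlier results of these data known. Coverage, reads, RNA and regions that opened in EDKO embryos were not analysed here.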

Additional observations from a re-analysis of the deposited data

How the results depend on the processing

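For 7 results, 45 alternative values were computed, of which 30 were classed as kept and 15 as moved. Those kept include 74 control peaks in place of 98, when a peak counted only for the gene with the nearest start site. The width of the window moved the counts most. The 98 control peaks became 64 within 50 kb, 190 within 250 kb and 624 within 1000 kb, and the 5 regions became 3, 15 and 30. With a region were 3 of the 8 genes within 50 kb, 6 within 250 kb and 8 within 1000 kb. Of the 27 further genes 2 and 14 had one within 50 and 250 kb. The share of all protein-coding genes with a region is given at 100 kb only (20.2%). The counts of genes at other widths therefore cannot be read as high or low. A stricter threshold, areas of 500 or more, left 62 control peaks with a median summit −log10 p of 6.14. It left 2 regions at 2 genes, Hhip and Smo, again without a share over all genes beside it. Searching whole peaks raised the AP-2 string to 33.7%, and to 32.4% over all control peaks. The share of control peaks that overlap a region ran from 3.06% (overlap of at least 50% of the peak) to 7.89% (250 kb), all classed as kept. The share at 250 kb was 15 of 190 peaks, 8 of them at Gas1. Without Gas1 it was 4.43% (7 of 158). An interval was not given for the 7.89%, so the absence of a detectable excess applies to 100 kb only. No paired analysis was possible because each call pooled its libraries and gives no value per library, and for the same reason no replicate could be left out.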
